A study of Xenopus laevis with 8 samples.

Results

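The response of neuralized Xenopus laevis ectoderm to EBF3 was read on 4 of the 8 two-color arrays of the series, those titled as replicates 1 to 4 of active EBF. On each of them, animal caps that expressed the hormone-inducible fusion hGR-XEBF3 and received dexamethasone (DEX) were labeled with cyanine 3 (Cy3), and caps with the same fusion and no hormone were labeled with cyanine 5 (Cy5). EBF3 switched on was therefore compared with EBF3 switched off within 1 array. All caps, the prospective ectoderm cut from stage 9 blastulae, came from embryos injected at the one-cell stage. In every group 0.2 ng of mRNA for Noggin was given to neuralize them. The active EBF3 embryos also received 1 ng of hGR-XEBF3 mRNA, and DEX was given at 30 μM for 4.5 h. On the other 4 arrays, called the DEX control, Cy3 held DEX-treated caps with 0.4 ng of hGR mRNA and no EBF3, and Cy5 again held untreated hGR-XEBF3 caps. The fusion was supplied as mRNA to the whole cap rather than from the ebf3 gene. Without a dye swap, the ratios of the active EBF3 arrays alone cannot separate dye bias from the response. The labels call the 4 replicates biological, and each was 1 experiment with 1 array of either kind.

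EBF proteins (early B cell factor, also Collier or Olf) are helix-loop-helix transcription factors with a zinc-coordinating DNA binding domain. They act in neuronal commitment, migration and differentiation, and in mammals also in the development of B cells and adipocytes. Animal cap cells left alone form epidermis. With Noggin, an inhibitor of bone morphogenetic proteins (BMPs), they take on a neural character of mostly anterior type. That was the intended ground state against which EBF3 was read here.

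Values below are mean log2 ratios of Cy3 to Cy5 over the 4 arrays, so that positive values stand for more transcript with active EBF3. A probe was called higher or lower when limma's test of the mean against 0 gave a Benjamini-Hochberg adjusted p under 0.05 over all 21357 probes tested and the mean change was at least 2-fold. By this rule 3.03% of the probes were called higher and 2.84% lower, and those are the shares against which each group of genes is set. They include many dim probes. When only the 11219 probes well above background on 4 of 4 arrays in Cy3 or in Cy5 were tested, 611 were higher and 675 lower. Those are larger shares. Against the DEX control arrays, in a second model over the 8 arrays that did not pair them by replicate, the shares were 2.42% higher and 1.44% lower. Of the 647 probes called higher and the 607 called lower on the active EBF3 arrays, 475 and 287 were called likewise in that model. Tested against 0 on their own, the DEX control arrays gave 0 calls among 21256 probes, which does not show that no probe changed. With the replicate as a block, 549 probes were called higher and 363 lower. Where the block is not named, adjusted p values against the DEX control are those of the unpaired model. A probe that missed the threshold there was not shown to be unchanged relative to the control. Between 51.8% and 58.9% of the spots were well above background in Cy3 by the scanner software's own call, and the number of arrays limits the precision. For a called probe whose dim channel did not exceed background on any array, a lower bound is given (at least N-fold). Replicates 1 and 2 were run on an array design with 1 spot for each probe and replicates 3 and 4 on one with 2 spots. By the file headers, replicates 3 and 4 of both groups shared 1 slide, scanned at 5 μm. The arrays of replicates 1 and 2 were on separate slides scanned at 10 μm. Ratios spread more widely on replicates 3 and 4, with a standard deviation across probes of 0.93 and 0.95 against 0.63 and 0.71. The mean change was larger in size on replicates 3 and 4 for 63.2% of the probes called higher and 90.0% of those called lower.

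The tissue was checked against defining markers in the untreated caps. Of 12 probes for early neural ectoderm markers, 10 were well above background in Cy5 on 4 of 4 arrays, among them sox2, sox3, sox11 and zic2. Epidermal markers were present too, with 7 of 8 probes above background on 4 of 4 arrays. Among the 4 neuronal marker probes, 2 reached that level, and 1 of 3 did so for cement gland. For mesoderm it was 4 of 8, for endoderm 3 of 7 and for blood and endothelium 1 of 3. The caps thus carried neural transcripts, which the Noggin label calls for, but also epidermal ones and some mesodermal and endodermal ones. Summed Cy5 signal was 763000 to 1652000 over the neural marker probes and 257400 to 722600 over the epidermal ones. The keratin probe krt70.S alone was at 221500 to 671000. Only 9 of the 11 neural and 5 of the 10 epidermal markers had a matched probe. How fully the caps were neuralized cannot be told from these values. Summed over the mesoderm marker probes, the signal was between 4726 and 9564 in Cy5 and between 123600 and 183000 in Cy3. The probe myod1.L alone made up 108400 to 171600 of the latter, and 3 of the 8 probes were called higher (myod1, myf5 and 1 of the 2 for vegt). Their part in the results below was not tested. Neither injected sequence was bright on its named probe. Cy5 of the ebf3 probe (Xebf-3) was above background on 0 of 4 arrays although those caps carried the fusion mRNA. Its ratios were 1.22, 2.25, 5.56 and 4.98, with a mean of 3.50 that missed the threshold (adjusted p = 0.0507, and 0.0261 without replicate 1). The noggin probe was at 1.00 ± 0.70 (SD, n = 4; adjusted p = 0.0913), and its Cy5 was likewise above background on 0 of 4 arrays.

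Genes were sorted by function into 21 lists, which together hold 860 probes, 850 of them tested. Of these, 111 were called higher and 69 lower. The lists with the largest shares of probes called higher were the neuronal transcription factors and the Hox and Cdx group (33.3% for both). Both lists hold candidates that the study picked from these same arrays. The neuronal list names several of them outright, so its share is in part set by that choice. The Hox list takes in every gene of that name, hoxd10 among them. The share of the Hox group rested on few arrays, since 3, 2 and 1 of its 21 probes were called higher without replicate 2, 3 and 4, against 9, 10 and 8 of the 33 neuronal transcription factor probes. Lower calls made up 30.2% of the early neural and progenitor probes and 29.6% of the anterior neural and cement gland probes, and no difference between lists was tested. Housekeeping probes were called at 0.763% higher and 1.53% lower, and cell cycle probes at 2.17% either way. The medians of the lists lay between -0.41 and 0.86, against 0.08 over all probes tested.

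**Figure D1:**
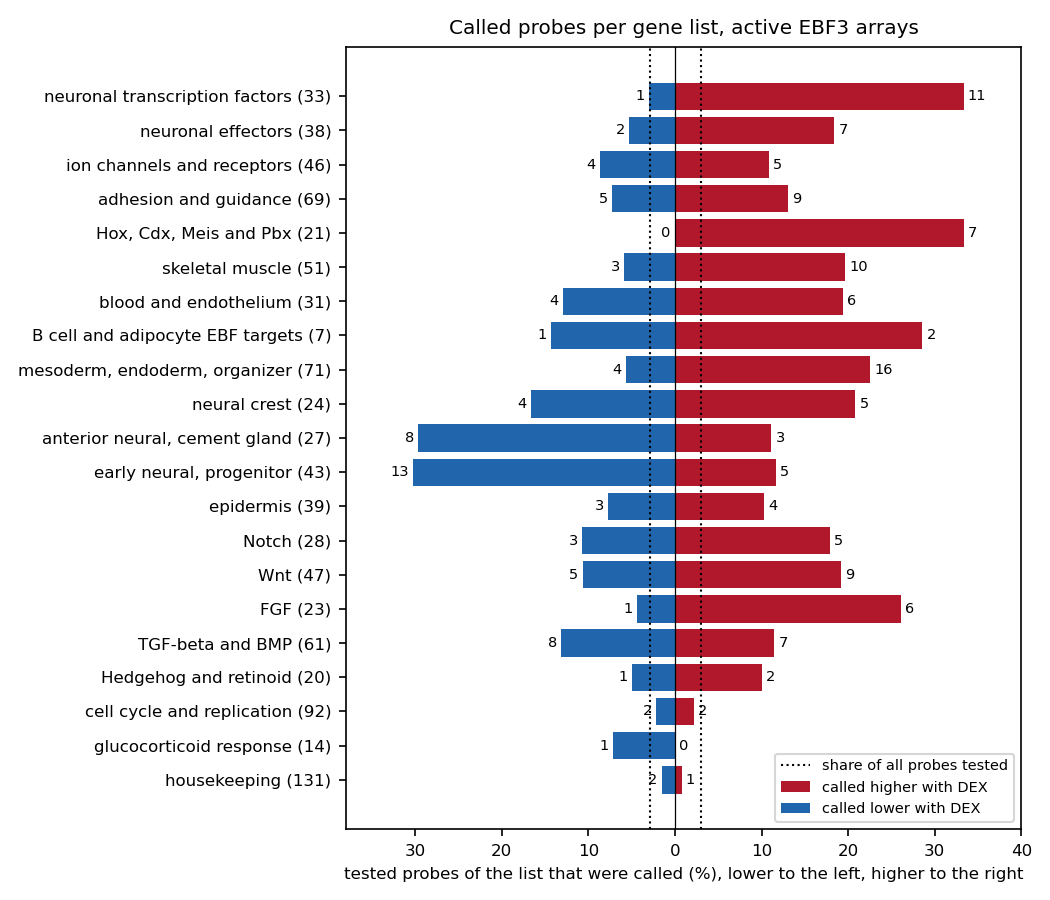
Share of the tested probes of each gene list called higher (red, to the right) or lower (blue, to the left) on the 4 active EBF3 arrays, in percent, with the number of called probes at each bar and the number tested in parentheses. Dotted lines mark the shares over all probes, 3.03% higher and 2.84% lower. The neuronal transcription factors and the Hox group reach 33.3% to the right, and the early neural list 30.2% to the left. Candidates that the study picked from these same arrays are among the counted probes.

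**Figure D2:**
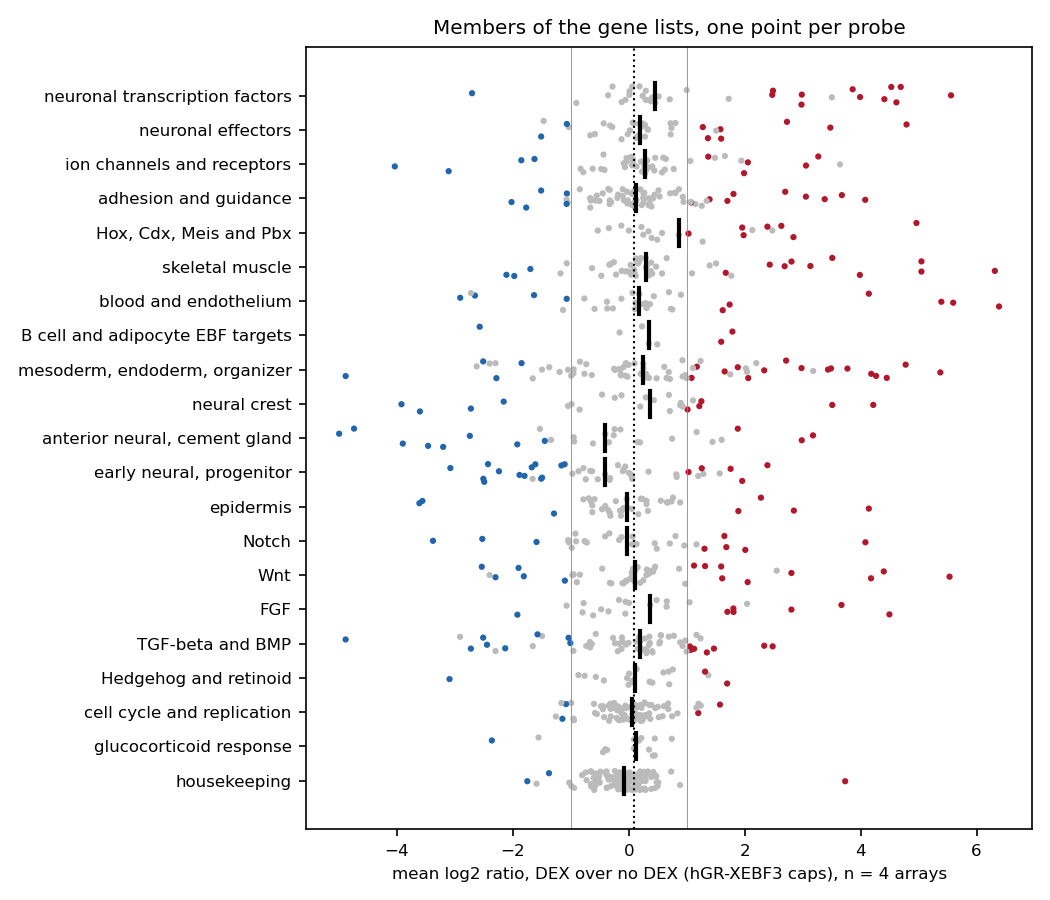
Mean log2 ratio of every tested member of the 21 gene lists over the 4 active EBF3 arrays, with called probes in red (higher) or blue (lower) and the others in gray. Black bars are list medians and the dotted line is the median of all probes, 0.08. Thin lines mark a 2-fold change. List medians lie between -0.41 and 0.86, the latter in the Hox group, and called members spread out to 6.39 above and -4.99 below.

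Transcription factors of neurons were called mostly upward. Of 33 probes, 11 were called higher and 1 lower, with a median of 0.46, and 8 to 13 were called higher when any single replicate was left out. Genes that the study itself picked from these arrays, such as nr2f2, nscl-1 and emx1, are in the count, which is in part set by that choice. The paper set nr2f2 aside after embryo tests gave changes in either direction. As caps were measured whole, more cells of a kind and more RNA in each cell cannot be told apart here or below. The bHLH factor neurod1, which drives neuronal differentiation, is a candidate of the study itself (neurod). The candidate's probe averaged 4.93 over replicates 1 and 2 and 4.43 over replicates 3 and 4. A second probe (neurod1-A) was at 3.17, 3.45, 4.71 and 4.12 on the 4 arrays. The mean of this second probe, 3.86 (SE 0.28, adjusted p = 0.00188), is a 14.5-fold rise, and its values on the DEX control arrays did not overlap with these. The family member ebf2 rose on both of its probes. The first (ebf2-A) was at 3.94, 4.56, 5.27 and 3.87 and rose 21.2-fold. The second (ebf2-B) had a lower mean of 2.49 and missed the threshold without replicate 2 (adjusted p = 0.0529) or 4 (adjusted p = 0.0935). Several homeodomain and nuclear receptor genes of specific neuron classes rose with them. The autonomic and hindbrain factor phox2a was between 2.09 and 2.90 on the 4 arrays, with a mean of 2.48. The LIM homeodomain gene lhx1, used in interneurons and also in the organizer, was at 2.98, and the orphan nuclear receptor nr2f1 was also at 2.98. The spinal interneuron factor evx1 ranged from 2.73 in replicate 1 to 6.01 in replicate 3 (mean 4.53, adjusted p = 0.0684 without replicate 4). The exception was the zinc finger gene myt1 (myt1.S), which promotes neuronal differentiation in Xenopus. It fell by 2.70, with values of -1.56, -2.13, -3.73 and -3.40, and missed the threshold without replicate 2 (adjusted p = 0.0534) or 4 (adjusted p = 0.0953).

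Of 38 probes for products that neurons use, 7 were called higher and 2 lower, with a median of 0.19, and 7, 4, 5 and 5 were called higher without replicate 1, 2, 3 and 4. Intermediate filaments made up 4 of the 7. Among them was nf-m, a candidate of the study itself, with the largest mean of the matched probes (4.79). The filament gene peripherin, another candidate, was named for the list, but its probe was not matched to it and is not in these counts. The peripherin probe averaged 5.225 over replicates 1 and 2 and 5.164 over replicates 3 and 4. The second neurofilament medium probe, nefm.L, was at 3.47, 3.38, 4.00 and 3.06, and its 4 values lay within 1 log2 unit. Neurofilament light, nefl.L, rose by 1.58 on average and was positive on 4 of 4 arrays. Internexin (ina) was at 1.59, with a value of 0.76 in replicate 4, and missed the threshold without replicate 2 (adjusted p = 0.0868) or 3 (adjusted p = 0.0865). The neuronal RNA-binding protein gene elavl3 (elrC), an early marker of postmitotic neurons, rose 6.63-fold, at 2.66, 3.16, 2.95 and 2.15. Synapsin 2 (syn2), a synaptic vesicle protein, rose by 1.37 and missed the threshold without replicate 2 (adjusted p = 0.0536) or 4 (adjusted p = 0.0567). The 2 members that fell were ncam1 (-1.51), the neural cell adhesion molecule, and the leucine-rich repeat gene xnlrr-1 (-1.07). A second ncam1 probe (ncam1.S) was at -0.66 and was not called (adjusted p = 0.0996). For the first, the DEX control arrays were at a similar level, so that the difference from them was only -0.20 (adjusted p = 0.943), and the calls of both genes were lost without replicate 2, 3 or 4 (adjusted p between 0.0529 and 0.106).

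Ion channels went both ways, with 5 of 46 probes called higher and 4 lower. Higher calls numbered 7, 4, 5 and 1 and lower calls 4, 1, 2 and 1 without replicate 1, 2, 3 and 4, and the median was 0.28. The potassium channels kcna4 (kcna4.S), a voltage-gated subunit, and kcnk9 (kcnk9.L), a leak channel, were at 3.06 and 3.27. Their ranges over the arrays were 2.04 to 3.75 and 2.04 to 4.68, and the lowest value was that of replicate 1 for both. Each missed the threshold without replicate 4 (adjusted p = 0.0507 and 0.0762), and kcnk9 also without replicate 2 (adjusted p = 0.0529). A second probe (kcnk5.S) of the leak channel kcnk5, a candidate of the study itself, rose by 2.06 and held with any replicate left out. The nicotinic receptor subunit chrnb2 (chrnb2.S) rose by 1.99 (adjusted p = 0.0619 without replicate 4). In the other direction, kcnj1, an inwardly rectifying potassium channel of transporting epithelia, was at -2.69, -4.19, -4.60 and -4.66 and fell by 4.03 on average. The sodium channel beta subunit scn3b was at -3.10, but the DEX control arrays were negative as well. Its difference from them was -1.65 (adjusted p = 0.324, and 0.0301 with the replicate as a block), and its call was lost without replicate 2, 3 or 4 (adjusted p between 0.0718 and 0.105).

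Adhesion and guidance genes gave 9 higher and 5 lower calls among 69 probes, with a median of 0.13. All 5 lower calls were lost without replicate 2 or 4, and 1 was made without replicate 3, whereas 6 to 8 probes were called higher with any replicate left out. Neuropilin 1 (nrp1.L), a receptor for semaphorins and VEGF, was at 3.11, 3.21, 4.55 and 3.82. The Eph receptor epha2 rose by 2.70 and varied little between arrays, from 2.35 to 3.03. The collagen chain gene col9a3 was at 3.38 ± 0.32 (SD, n = 4) and the integrin subunit itga3 at 3.06 ± 0.42 (SD, n = 4). A clone annotated as similar to muscle cadherin (BG018551) was at 4.08, and another clone, annotated as similar to cadherin 15 and outside the list, was at 4.46, 5.27, 6.04 and 5.36. Cadherin 15 is the cadherin of skeletal muscle precursors. Among the probes that fell were ephrin-B3 (efnb3, -1.77) and the repulsive guidance molecule rgma (-1.07), and both lost the call without replicate 2, 3 or 4 (adjusted p between 0.0584 and 0.142).

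The Hox, Cdx and Meis group was called upward only. Of 21 probes the 7 called were all higher, 18 had a mean above 0, and the median of 0.86 was the highest of the 21 lists. These genes mark the trunk and tail along the body axis, and in neural tissue they are posterior to the domains of otx2 and six3. The number of calls was 9 without replicate 1, 3 without replicate 2, 2 without replicate 3 and 1 without replicate 4, and several members were higher on the second array design. The call that held with any replicate left out was that of hoxd10, a posterior gene among the study's own candidates, at 4.80, 5.16, 5.15 and 4.73. In whole embryos the paper found hoxd10 lowered by EBF3 in most of those scored. It holds the gene unlikely to be a target in the embryo at that stage. The anterior group gene hoxd1 was at 1.65 and 1.91 in replicates 1 and 2 and at 4.31 and 3.50 in replicates 3 and 4, and its mean of 2.84 missed the threshold without replicate 2, 3 or 4 (adjusted p = 0.0602, 0.0502 and 0.125). The hoxc6 probe (XlHbox1) showed the same order, at 1.55, 2.27, 3.26 and 3.44 (adjusted p = 0.0696 without replicate 4). The posterior gene hoxd13 was at 1.98 (adjusted p = 0.0509 without replicate 3 and 0.0554 without replicate 4), and its Cy5 was above background on 1 array. In the caudal family, which acts upstream of Hox genes in the posterior body, xCAD2 was at 2.39 and cdx2 (cdx2.S) at 1.96. Both lost the call without replicate 2, 3 or 4 (adjusted p between 0.0797 and 0.157). A further probe annotated as xcad2 (cad2-A), outside the list, gave 4.08, 4.46, 4.50 and 4.03 and held with any replicate left out. Against the DEX control arrays, 6 of the 7 were called higher too, and the Hox cofactor meis3 (1.03 on the active EBF3 arrays; adjusted p between 0.0648 and 0.0815 without replicate 2, 3 or 4) was not. With the replicate as a block 4 of the 7 were called, and hoxd13 (adjusted p = 0.0553) and xCAD2 (adjusted p = 0.0783) were not.

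Skeletal muscle genes were among the largest rises. Of 51 probes 10 were called higher and 3 lower, and 8 to 12 were called higher without any single replicate. Against the DEX control arrays, the same 10 were called. The myogenic bHLH gene myod1 (myod1.L) was at 6.73, 6.46, 6.82 and 5.24, a mean rise of 79.6-fold, and a second clone similar to myod1 (MGC52596) was at 5.16, 5.27, 5.32 and 4.44. The related gene myf5 rose less, by 2.69, from 2.13 to 3.01 across arrays. The gene pax7 (pax7.L), a factor of muscle precursors and of the neural crest, was at 3.51 (SE 0.26). The RNA-binding protein gene rbm24 (seb4), which acts in muscle differentiation, was at 3.58, 4.23, 4.17 and 3.96. Among structural genes of the sarcomere, an actin alpha clone (MGC53823) was at least 19.2-fold higher, since its Cy5 was above background on 0 of 4 arrays. The myosin light chain gene myl4 rose by 2.43. The calcium pump gene atp2a1, which refills the sarcoplasmic reticulum, was at 2.81. Troponin C (tnnc1) was at 3.13 (adjusted p = 0.0634 without replicate 4). Troponin T (tnnt3) was at 1.67, with the call lost without replicate 2, 3 or 4 (adjusted p = 0.116, 0.0558 and 0.132). The 3 members that fell were products of differentiated muscle, namely creatine kinase (ckm, -2.11), myozenin 2 (myoz2.L, -1.97) and a clone for slow troponin I (MGC64405, -1.70). Only the last was also called lower against the DEX control arrays, where creatine kinase was called too with the replicate as a block (adjusted p = 0.038), and each of the 3 missed the threshold without replicate 4 (adjusted p = 0.051, 0.159 and 0.0994). The last 2 also did so without replicate 2 (adjusted p = 0.089 and 0.0761), and myozenin 2 without replicate 3 (adjusted p = 0.0963).

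Of 31 probes for blood and endothelium, 6 were higher and 4 lower, 21 were not called, and the median was 0.18. Without replicate 1, 2, 3 and 4 the counts were 6, 5, 6 and 4 higher and 5, 2, 2 and 2 lower. The hematopoietic and endothelial factors tal1 (tal1.S), its LIM-only partner lmo2, and the homeobox gene hhex had means of 6.39, 5.60 and 5.39. The partner gene lmo2 was at 4.69, 5.61, 6.44 and 5.64, while hhex was at 5.45, 5.76, 5.56 and 4.79, a 42.0-fold rise that was even over the arrays. Their Cy5 signals were above background on 4 of 4 arrays for lmo2 and hhex and on 2 for tal1. The zinc finger gene gata3 was at 4.14 (SD 0.57) and positive on 4 of 4 arrays, but its DEX control value of replicate 1 lay inside this range. The difference from the DEX control arrays was 4.73 (adjusted p = 0.123). The endothelial gene sox7 (1.74) was carried unevenly, at 1.94, 2.31, 0.28 and 2.43, and its call was lost without replicate 1, 2 or 4 (adjusted p between 0.0925 and 0.18). Both probes of the ETS factor elf1 fell, by 2.91 and 2.65, and held with any replicate left out. The LIM domain binding protein ldb1, which bridges lmo2 and tal1 complexes, fell by 1.07 and lost the call without replicate 2, 3 or 4 (adjusted p between 0.103 and 0.134). The red cell factor gata1 was at 0.37 and was not called (adjusted p = 0.593), with Cy3 above background on 1 array and Cy5 on 0. Its relative gata2 was at -0.59 and was not called either (adjusted p = 0.548).

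For the genes that EBF1 regulates in B cells and adipocytes of mammals, 7 probes were found, of which 2 were higher and 1 lower. Without replicate 3 only 1 was called higher, and both higher calls were lost without replicate 2 or 4. The forkhead gene foxo1 was at 1.79, with 0.72 in replicate 1 and 2.32 in replicate 3, and its call was lost without replicate 2, 3 or 4 (adjusted p between 0.081 and 0.114). The probe matched by name to tcf3, an E protein gene and bHLH partner in B cell and neural development, fell by 2.57 (SE 0.27, adjusted p = 0.00646). That identity rests on the name alone. The values of the tcf3 probe were -2.10, -2.11, -2.50 and -3.56, and the call held with any replicate left out.

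**Figure D3:**
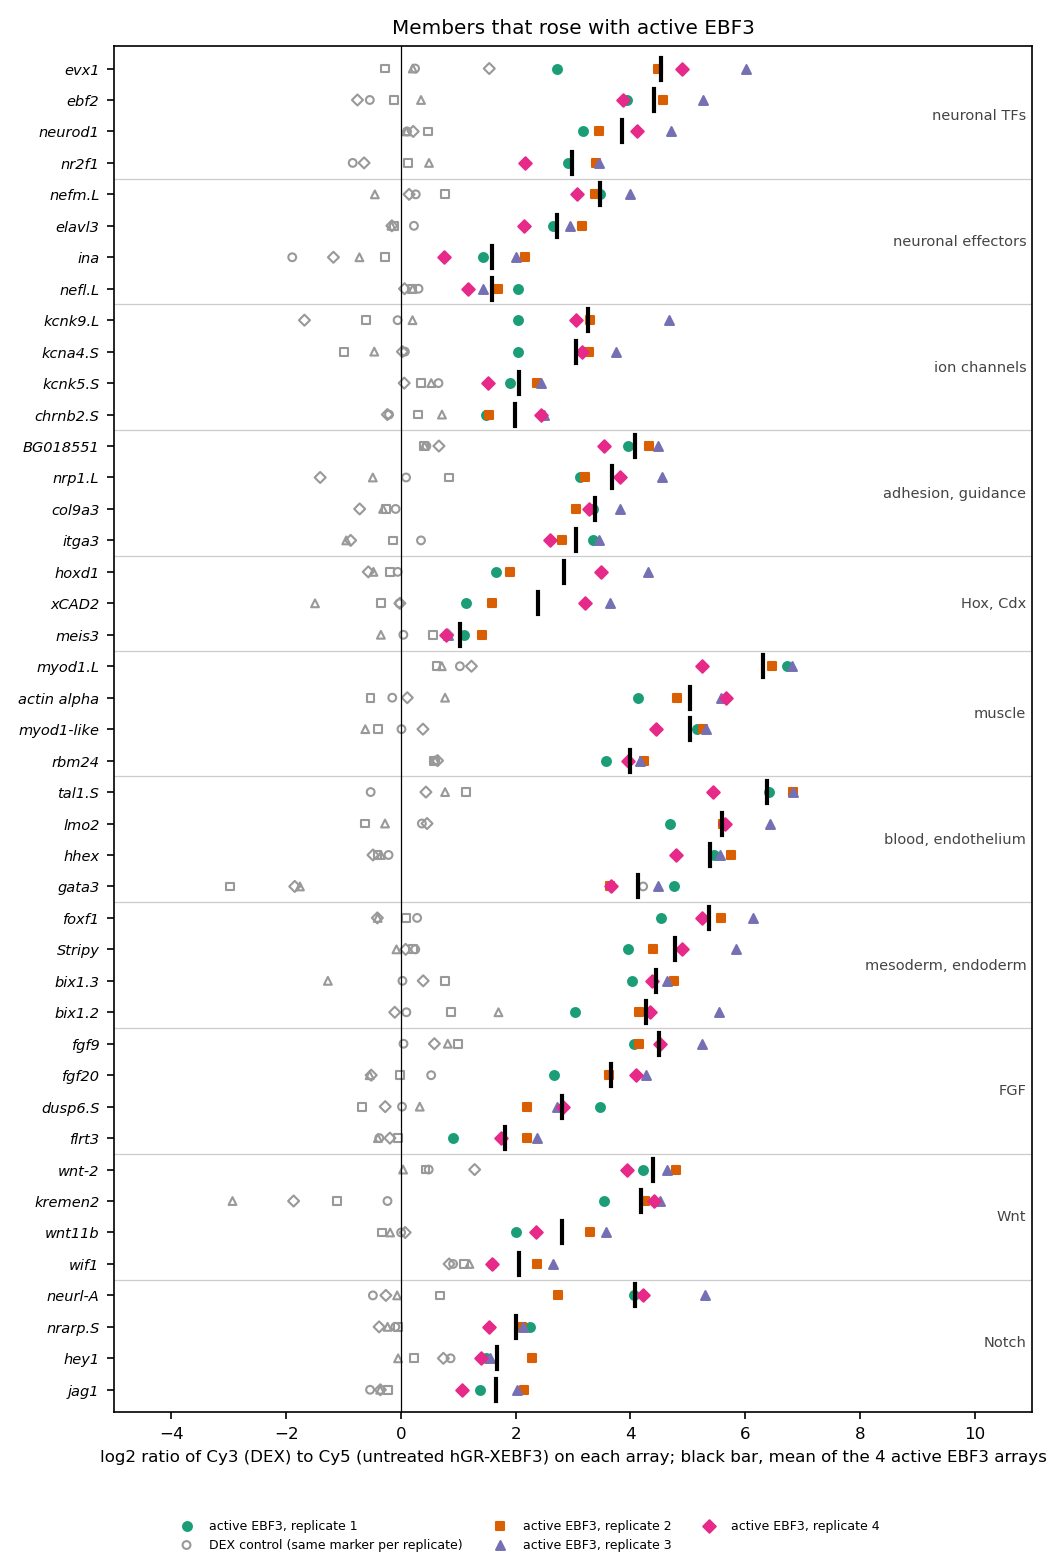
Log2 ratios of Cy3 to Cy5 on each of the 4 active EBF3 arrays (filled markers) and the 4 DEX control arrays (open gray markers) for up to 4 of the largest rises in each of 11 gene lists. The probes given for the study's own candidates are left out, but second probes of such genes are not. Black bars are the means of the active EBF3 arrays. The filled markers of myod1.L lie between 5.24 and 6.82, those of hhex between 4.79 and 5.76, and the gata3 control of replicate 1 lies among its filled markers.

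Mesoderm, endoderm and organizer genes were the list with the most calls upward by number, with 16 of 71 probes higher (22.5%) and 4 lower (5.63%). The share called higher was smaller than in the neuronal transcription factor and Hox lists (33.3% for both). It was also below the B cell and adipocyte list (28.6%) and the FGF list (26.1%). With replicate 1, 2, 3 or 4 left out, 21, 12, 14 and 11 were higher and 7, 1, 3 and 1 lower. Calls in the same direction against the DEX control arrays were made for 12 of the 16 and 2 of the 4. With the replicate as a block it was 12 and 1. The forkhead gene foxf1 (xfd-13), used in lateral mesoderm, was at 4.53, 5.58, 6.14 and 5.24. The paired-like homeobox genes of the Mix and Bix family, which specify mesendoderm under Nodal and VegT, were called on 4 of the probes given here. Probes for bix1.3, bix1.2 and bix1.1 were at 4.45, 4.27 and 4.18, and mix1 (Mix.1) at 3.49 (adjusted p = 0.062 without replicate 4). The bix1.3 probe was at 4.03, 4.76, 4.63 and 4.38, with Cy5 above background on 2 of 4 arrays. A second probe listed for mix1 (mix.2-A) was at -0.76 and was not called (adjusted p = 0.0675). The notochord homeobox gene not (not.L) rose by 3.77 and the endodermal pioneer factor foxa1 by 3.44, and both held with any replicate left out. The probe named Stripy was at 4.78. The endodermal and cardiac gene gata5 was at 2.86, 2.96, 2.89 and 2.15. The Nodal ligand gene nodal2 (nodal2.L) rose by 2.34 (adjusted p = 0.0629 without replicate 4). The pan-mesodermal T-box gene tbxt was not called, at -0.14 on 1 probe and 0.62 on the other, and was above background in Cy5 on at most 1 array. Of the endodermal sox17 genes, sox17a was at -2.62 and missed the threshold (adjusted p = 0.0576).

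Of the 4 lower calls of the list, 3 are given here. The BMP-like organizer gene admp (admp.S) was at -4.88 and missed the threshold without replicate 2 (adjusted p = 0.0529) or 4 (adjusted p = 0.103). Its difference from the DEX control arrays was called (adjusted p = 0.0274) but not with the replicate as a block (adjusted p = 0.0591). The Nodal antagonist lefty fell by 2.51 and was even over the arrays, from -2.13 to -2.91. The forkhead gene foxa4, expressed in notochord and floor plate, was at -2.28, with -0.88 in replicate 1 and -3.44 in replicate 4, and lost the call without replicate 2, 3 or 4 (adjusted p between 0.0991 and 0.118).

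Neural crest genes split, with 5 of 24 probes higher and 4 lower and a median of 0.36. Leaving out replicate 1, 2, 3 or 4 gave 4, 3, 2 and 2 higher and 5, 3, 2 and 2 lower calls. The crest and gonad factor sox8 was at 2.91, 3.26, 6.02 and 4.67 (mean 4.22, adjusted p = 0.0835 without replicate 4). The early crest specifier foxd3 rose by only 1.22 and missed the threshold without replicate 2 (adjusted p = 0.0756) or 3 (adjusted p = 0.0687). The endothelin receptor gene ednra rose by 1.25, with a value of 0.35 in replicate 1, and lost the call without replicate 2, 3 or 4 (adjusted p between 0.144 and 0.152). Both probes for kit, the receptor tyrosine kinase of melanoblasts, fell. The first (kit-A) was at -3.18, -3.70, -4.40 and -4.40, a 15.1-fold fall, and the second (kl1-A) fell by 3.60. The bHLH inhibitor id4 was at -2.72 (adjusted p = 0.0503 without replicate 3 and 0.0554 without replicate 4).

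Of 27 probes for anterior neural and cement gland genes, 8 were lower and 3 higher, 16 were not called, the median was -0.40, and 18 were at or below 0. Without replicate 1, 2, 3 and 4, lower calls numbered 11, 7, 8 and 4 and higher calls 4, 1, 3 and 1. The cement gland gene agr2 (agr2.S) was at -3.20, -4.34, -5.95 and -5.45, a 26.7-fold fall (adjusted p = 0.0528 without replicate 4), and the difference from the DEX control arrays was -3.99 (adjusted p = 0.0176). The cement gland and pituitary gene pitx1 was not called on either of its probes, at -0.94 and -1.34. The eye field gene rax fell on both of its probes. The first (Rx1A) was at -2.16, -3.37, -2.85 and -2.58. The second (Rx2A) was at -1.86 in replicate 1 and between -3.95 and -4.05 in the others, with -2.73 on 1 DEX control array (adjusted p = 0.0704 without replicate 4, and 0.111 against the DEX control). The forebrain and midbrain gene otx1 was even, at -3.07, -2.87, -3.43 and -3.43, a 9.19-fold fall. A clone similar to its relative otx2, outside the list, was at -3.22, -4.08, -4.57 and -4.52. The forebrain repressor hesx1 (anf2) was at -3.58, -4.62, -5.75 and -6.02, a 31.9-fold fall, and the eye and forebrain gene six3 at -3.15, -3.75, -4.33 and -4.35. The gene pax6 was named for the list, but its probe was not matched to it and is not in these counts. The pax6 probe fell by 2.95, but the DEX control arrays were at -1.45 and the difference from them was -1.50 (adjusted p = 0.508). A clone annotated as shisa, a head gene that retains Wnt and FGF receptors inside the cell, was at -3.38 (SE 0.27). The DEX control arrays, without active EBF3, had a list median of -0.47, below that of the active EBF3 arrays, and 5 of the 8 were called lower against them.

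Of the 3 anterior members that rose, the ventral forebrain and thyroid gene nkx2-1 (titf1) was at 3.38, 2.36, 3.40 and 2.80, and tbx3, used in the ventral forebrain and cement gland, at 2.33, 3.12, 4.98 and 2.28. The nkx2-1 call held with any replicate left out. The tbx3 call was lost without replicate 2 (adjusted p = 0.0722) or 4 (adjusted p = 0.0747), and its difference from the DEX control arrays was 3.10 (adjusted p = 0.234). A rise of 1.88 for pax8 lost the call without replicate 2, 3 or 4 (adjusted p between 0.0804 and 0.161), with Cy5 above background on 2 of 4 arrays.

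Of 43 early neural and progenitor probes, 13 were lower and 5 higher, with a median of -0.41. When replicate 1, 2, 3 or 4 was left out, 14, 9, 7 and 6 were lower and 6, 1, 1 and 1 higher, and 8 were called lower against the DEX control arrays. The zinc finger gene opl, of the Zic family that stabilizes the neural plate, was at -1.85, -1.96, -2.86 and -3.04. In contrast, zic2 was at -0.78 and narrowly missed the threshold (adjusted p = 0.0508). Of the Iroquois homeobox genes, which prefigure neural territory, irx2 fell by 2.51 (adjusted p = 0.058 without replicate 4) and irx3 (Xiro3) by 2.49. A probe for irx1 (irx1.L) was at -1.88 and lost the call without replicate 3 (adjusted p = 0.0791) or 4 (adjusted p = 0.132). Their relative irx4 was named for the list, but its probe was not matched to it and is not in these counts. The irx4 probe moved the other way, at 3.12, 3.71, 3.09 and 3.51. The SoxB1 gene sox2, which holds progenitors in their state, was at -0.98, -1.08, -1.24 and -1.34. The fall of 1.16 was small but even, and the difference from the DEX control arrays was -0.92 (adjusted p = 0.114). A probe for sox11 fell by 1.49 (adjusted p = 0.0558 without replicate 3 and 0.0681 without replicate 4), while a second sox11 probe (xsox-11) was at -0.74 and missed the threshold (adjusted p = 0.0514). The pluripotency zinc finger gene sall4 fell by 1.61 and foxb1 by 1.80, and both held with any replicate left out. Among the 5 that rose, the progenitor RNA-binding protein gene msi1 (msi1.L) was at 1.43, 1.11, 1.31 and 1.19, and nestin (nes.S) at 1.76, with its call lost without replicate 2, 3 or 4 (adjusted p between 0.0912 and 0.162). The other 3 were xCAD2, cdx2 and meis3, given above.

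Epidermal genes were called in small numbers on either side. Of 39 probes 4 were higher and 3 lower, with a median of -0.03, and lower calls numbered 2, 2, 3 and 1 without replicate 1, 2, 3 and 4. The single probe that was also called against the DEX control arrays was klf17 (klf17.L), a Krüppel-like factor, at -3.06, -3.34, -2.86 and -4.97. The ionocyte regulator foxi1 was at -2.08, -4.23, -3.53 and -4.60, but 1 DEX control array reached -2.42, and the call was lost without replicate 4 (adjusted p = 0.0619). With the replicate as a block, foxi1 was called against the DEX control as well (adjusted p = 0.0491). Probes for foxi4.2 were at 2.85 and 2.28, and their DEX control values overlapped with these. A probe for tp63, a factor of the basal epidermis, was at least 1.91-fold higher, since Cy5 was above background on 0 of 4 arrays, and lost the call without replicate 2 (adjusted p = 0.0668) or 4 (adjusted p = 0.0886). The keratin gene krt70 (krt1-2-prov) fell by 1.29 (adjusted p between 0.0772 and 0.135 without replicate 1, 2 or 4), and its difference from the DEX control arrays was -0.48 (adjusted p = 0.901). A second krt70 probe (krt70.S), brighter in Cy5 on 4 of 4 arrays, was at -0.63 and was not called (adjusted p = 0.283).

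**Figure D4:**
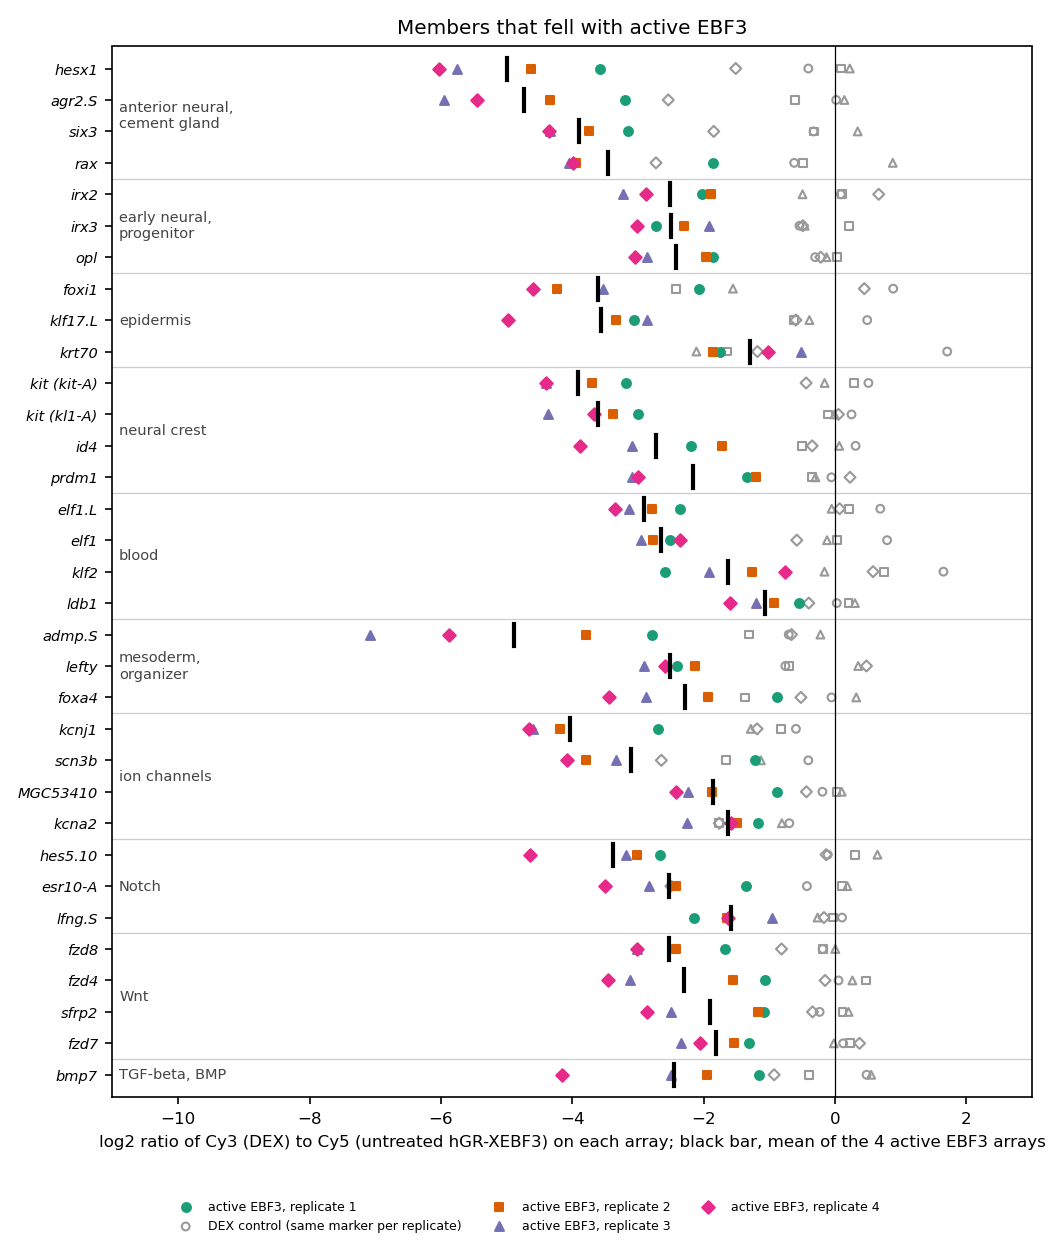
Log2 ratios of Cy3 to Cy5 on each of the 4 active EBF3 arrays (filled markers) and the 4 DEX control arrays (open gray markers) for up to 4 of the largest falls in each of 10 gene lists, with 2 probes not shown. Black bars are the means of the active EBF3 arrays. The filled markers of hesx1 lie between -6.02 and -3.58 and those of kit-A between -4.40 and -3.18, and for krt70 the gray markers lie on both sides of the filled ones.

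Notch pathway genes were called in either direction. Of 28 probes 5 were higher and 3 lower, with a median of -0.03. The counts were 5, 3, 5 and 3 higher and 4, 1, 2 and 1 lower without replicate 1, 2, 3 and 4. The receptor gene notch1 rose by 1.31 (adjusted p = 0.0554 without replicate 2 and 0.0592 without replicate 4) and the ligand gene jag1 by 1.65 (adjusted p = 0.0571 without replicate 2 and 0.0524 without replicate 3). The ubiquitin ligase gene neurl, which promotes ligand uptake, was at 4.07, 2.75, 5.30 and 4.21 (adjusted p = 0.0554 without replicate 4). The feedback inhibitor nrarp (nrarp.S) was at 2.26, 2.12, 2.13 and 1.54 and the repressor gene hey1 at 1.49, 2.28, 1.56 and 1.40, and both held with any replicate left out. Against the DEX control arrays hey1 was called, but not with the replicate as a block (adjusted p = 0.0755). Of the 3 lower calls, 2 were for repressors of the Hes and Esr group. The hes5.10 probe (ESR-6e) was at -2.66, -3.02, -3.18 and -4.64, and a clone similar to hes1, outside the list, was at -3.72 (SE 0.24). A probe for esr10 fell by 2.52, with 1 DEX control array at a similar level and the call lost without replicate 2, 3 or 4 (adjusted p between 0.0544 and 0.0675). The glycosyltransferase gene lfng, which modifies Notch, fell by 1.59 (adjusted p = 0.0653 without replicate 2 and 0.0809 without replicate 4).

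In the Wnt pathway, 3 ligand probes rose and 4 of the 5 called Frizzled receptor probes fell. Of 47 probes 9 were higher and 5 lower, and 7 and 4 were called against the DEX control arrays (9 and 4 with the replicate as a block). The ligand probe wnt-2 was at 4.22, 4.79, 4.64 and 3.95 and rose 21.1-fold, and wnt11b, a ligand of the planar polarity branch, was at 2.00, 3.29, 3.58 and 2.35. The third ligand probe, wnt3a, is a candidate that the study picked from these same arrays. It averaged 5.435 over replicates 1 and 2 and 5.63 over replicates 3 and 4. In whole embryos the paper found wnt3a unchanged by EBF3, and it holds the gene unlikely to be a target there at that stage. Secreted and membrane inhibitors changed in either direction. The gene for the Dickkopf co-receptor kremen2 rose to 3.53, 4.25, 4.53 and 4.41 and the Wnt inhibitory factor wif1 by 2.05, whereas the secreted Frizzled-related gene sfrp2 fell by 1.90. The difference of wif1 from the DEX control arrays was 1.04 (adjusted p = 0.073, and 0.0316 with the block). Lower calls were made for fzd8 (-2.53), fzd4 (-2.30), fzd7 (-1.81) and fzd3 (-1.10). A probe for fzd6 (fzd6.S) rose by 1.61, with a difference from the DEX control of 1.09 (adjusted p = 0.122, and 0.0199 with the block). All 5 lower calls were lost without replicate 4, where the adjusted p was 0.051 for fzd8, 0.129 for fzd4, 0.0647 for fzd7, 0.1 for fzd3 and 0.113 for sfrp2. Those of fzd4, fzd3 and sfrp2 were also lost without replicate 2 or 3 (adjusted p between 0.0672 and 0.118). The nuclear effector lef1 (lef1.L) rose by 1.59 (adjusted p = 0.0612 without replicate 2 and 0.0647 without replicate 4).

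FGF signaling genes rose on 6 of 23 probes, and 1 fell, with a median of 0.37. All 7 were called in the same direction against the DEX control arrays, and 5 to 7 were higher with 1 replicate left out. The ligand gene fgf9 was at 4.06, 4.14, 5.25 and 4.52, a 22.6-fold rise, and fgf20 at 2.67, 3.63, 4.28 and 4.10. A probe for fgf8 (FGF-8b) rose by 1.80 and was even, from 1.50 to 2.03. The MAP kinase phosphatase gene dusp6 (dusp6.S), a feedback gene of the pathway, was at 3.47, 2.20, 2.73 and 2.83. The transmembrane regulators flrt2 and flrt3 were at 1.70 and 1.81, and flrt3 lost the call without replicate 2, 3 or 4 (adjusted p between 0.0588 and 0.095). The receptor gene fgfr4 (fgfr4.L) was the member that fell, at -1.78, -1.80, -2.05 and -2.04, and its SD of 0.15 was small beside the mean of -1.92.

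Genes of the TGF-beta superfamily were called in similar numbers in either direction, 7 higher and 8 lower of 61, with a median of 0.20. Higher calls numbered 8, 2, 1 and 1 and lower calls 7, 3, 3 and 2 without replicate 1, 2, 3 and 4. Only 3 of the 7 and 4 of the 8 were called likewise against the DEX control arrays. With the replicate as a block it was 1 and 4. Ligands were on both sides. The BMP-class ligands bmp2 (1.35) and gdf6 (1.47) rose, and bmp7 was at -1.16, -1.96, -2.50 and -4.16. The 3 calls were lost without replicate 2, 3 or 4 (adjusted p between 0.0651 and 0.12). Extracellular modulators differed as well. The BMP antagonist grem1 was at 2.48 (adjusted p = 0.0503 without replicate 3 and 0.095 without replicate 4) and the BMP-binding protein gene twsg1 fell by 2.13 with an SD of 0.27. The inhibitory Smads smad6 and smad7, which BMP signals induce, were at 1.06 and 1.13. The smad7 call was lost without replicate 2, 3 or 4 (adjusted p between 0.0528 and 0.0844). The smad6 call was lost without replicate 2 or 3 (adjusted p = 0.0846 and 0.0818), and without replicate 1 its mean of 0.97 was under a 2-fold change. Among the receptors, acvr1 was at 1.07 and bmpr1a (bmpr1a.S) at -1.57, and both lost the call without replicate 2, 3 or 4 (adjusted p between 0.0651 and 0.155).

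Hedgehog and retinoid genes had 2 higher and 1 lower calls among 20 probes. Both higher probes were for gli2, a transcriptional effector of Hedgehog, at 1.70 (Gli2) and 1.32 (Xgli4). The first missed the threshold without replicate 4 (adjusted p = 0.0725) and the second without replicate 2 (adjusted p = 0.0655) or 3 (adjusted p = 0.0535). The retinoic acid degrading enzyme cyp26a1 (cyp26a1.S) was at -2.23, -2.12, -4.07 and -3.94 and fell by 3.09 (adjusted p = 0.0761 without replicate 4). A clone similar to lrat, an enzyme of retinoid storage, was at -3.62 and spread from -1.37 to -5.54 (adjusted p between 0.0567 and 0.152 without replicate 1, 3 or 4).

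Genes of general cell function were called at shares near or below those over all probes (3.03% higher, 2.84% lower). Of 92 cell cycle and replication probes, 2 were higher and 2 lower (2.17% either way). Their median was 0.05, and 5 were lower without replicate 1. The largest mean of the list, 1.57, was that of a probe named wee1B, at 1.27 over replicates 1 and 2 and 1.88 over replicates 3 and 4. The mitotic brake kinase wee1 (WEE2A) rose by 1.20 and the replication kinase cdc7 fell by 1.14. The WEE2A and cdc7 probes missed the threshold without replicate 2, 3 or 4 (adjusted p between 0.0558 and 0.0807). Of 131 housekeeping probes, 1 was higher (0.763%) and 2 lower (1.53%), with 4 lower without replicate 1. The higher probe was eef1a2, the elongation factor form of neurons and muscle in mammals, at 3.83, 4.02, 3.95 and 3.14, a 13.3-fold rise that held with any replicate left out. Initiation factor genes eif4a2 and eif4e fell by 1.75 and 1.38, and eif4a2 missed the threshold without replicate 4 (adjusted p = 0.062) and eif4e without replicate 2, 3 or 4 (adjusted p between 0.0566 and 0.0658). Because DEX is a glucocorticoid, known glucocorticoid-responsive genes were counted too. Of 14 probes, 1 was called, and it was lower (7.14% of the list, and 2 probes without replicate 1). The classical induced gene tsc22d3 was at -1.85, -1.75, -3.54 and -2.30 with active EBF3 and at a mean of 0.45 on the DEX control arrays (adjusted p = 0.0884 without replicate 4).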

How the data were processed

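Of 8 two-color arrays of Xenopus animal cap RNA, 4 (active EBF3) are described and 4 (DEX control) serve as comparison. The sample labels gave groups, dyes and replicate numbers. The deposited processed signals are intensities that the authors' scanner software (Feature Extraction, 8.1.1.1 for replicate 1 and 9.1.3.1 otherwise, per the file headers) had background-corrected and then normalized between dyes by LOWESS. The deposited log10 ratios of the same arrays, in the scanner output and in the authors' table, were used to check direction and as an alternative. In R 4.3.3 each spot's log2 ratio of Cy3 to Cy5 was taken. Control spots and non-uniform spots were left out and spots of a probe averaged. No centering was applied.

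Means were tested against 0, and active EBF3 against DEX control arrays, with limma 3.58.1 (lmFit, eBayes, two-sided, Benjamini-Hochberg adjustment). Calls needed an adjusted p under 0.05 and a 2-fold mean change. A lower bound sets the bright channel against the lowest signal well above background, after quantile normalization of the mean log2 signal between arrays, and is open to dye bias. Probes were placed in lists by gene name and description. This matching missed some probes of genes named for the lists. Among them were those for irx4 (early neural list) and pax6 (anterior list). The candidate probes for peripherin, kcnk5 and pcdh8 were missed as well, so the list counts leave them out. Members and lists were chosen with earlier results of these data known. A probe for the caudal gene xcad2, first matched to the cadherins by name, was taken out of the adhesion list after its values were seen. Named genes are the up to 4 largest rises and falls in each list, the 25 largest overall that have a name, and the marker genes. Except for the markers, they share 1 sign over the 4 arrays, with a bright channel well above background on 4. The probes given for the study's own candidates were left out of this choice, and some are given only beside a list. Second probes of such genes, neurod1-A and kcnk5.S among them, stayed in. Other called members of the lists, ebf3, noggin, pax6, irx4, gata2, peripherin and the clones outside the lists were added after their values were seen. Names of clones are those of the array's annotation or of the study's gene table. Probes of the same gene were not averaged, and homeologous copies may cross-hybridize.

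Same-numbered arrays of both groups came from 1 experiment per the labels. Deviations of such pairs from their group means had correlations of 0.591, 0.493, 0.366 and 0.574 over 21197 probes, against -0.339 to 0.0483 for other numbers, so a replicate block was tried. Scripts were first run on simulated arrays with known changes. One member of the early neural list and one of the mesoderm list are not reported here.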

Additional observations from a re-analysis of the deposited data

Results flagged for a closer look

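Among 204 named probes, 3 had an array whose value stood apart from the other 3 by Dixon's ratio of the gap to the whole range, where chance alone marks about 1 in 20. The eye field gene rax (Rx2A) was at -1.86 in replicate 1 against -3.95, -4.05 and -3.98, a ratio of 0.954. The cardiac and endodermal gene gata5 was at 2.15 in replicate 4 against 2.86, 2.96 and 2.89, a ratio of 0.885. The endothelin receptor gene ednra was at 0.35 in replicate 1 against 1.68, 1.51 and 1.47, a ratio of 0.844.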

How the results depend on the processing

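On the active EBF3 arrays 647 probes were called higher and 607 lower. Leaving out 1 replicate gave 322 to 734 higher and 153 to 752 lower. Replicates 1 and 2 only gave 102 and 11, and replicates 3 and 4 only 1423 and 1538. With normexp background correction and loess there were 329 and 287 calls and with the methods' t-test 193 and 81. The share of higher calls was 51.6% in the main analysis, 70.4% with the t-test, 67.8% without replicate 4, 62.3% without replicate 2, 62.7% without replicate 3, 90.3% in replicates 1 and 2 and 44.3% with centered arrays. The cause of these shifts was not tested, except that fewer arrays entered the fits that left some out. A random block for the array design, centering, keeping non-uniform spots, bright probes only and the authors' table moved no count by over 1.5 times. Against the DEX control arrays, 513 were higher and 306 lower. Leaving out 1 replicate gave 265 to 501 and 97 to 292, and replicates 1 and 2 alone (added after seeing the data) gave 0 and 0 by limma, against 606 and 343 at an unadjusted p under 0.05. With the replicate block, for which the pairing holds, the counts were 549 and 363, and among 202 named or marker probes 9 lost the call and 7 gained one. Of the 42 list counts, 38 stayed within 1.5 times under centering, 37 with bright probes only, 24 under normexp, 38, 20, 26 and 14 without replicate 1, 2, 3 and 4, 17 in replicates 3 and 4 only and 3 in replicates 1 and 2 only. Of 202 called probes named or used as markers, 8, 73, 59 and 98 lost the call without replicate 1, 2, 3 and 4, 63 under normexp and 117 with the t-test, and 0 changed sign on the active EBF3 arrays. For krt70 (krt1-2-prov) against the DEX control, the difference of -0.48 ranged from -1.17 to 0.51 with 1 replicate left out and was 0.87 in replicates 3 and 4 alone. Signal over background limits dim probes, since 30 of the higher and 21 of the lower calls had a dim channel above background on 0 arrays.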

Other observations

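Outside the 21 gene lists, several of the largest changes were in genes of other functions. A clone similar to adrenodoxin, an iron-sulfur protein of mitochondrial steroid synthesis, was at 5.38, 5.95, 5.25 and 4.47 and rose 38.4-fold. A clone similar to the homeobox gene vsx1, used in retinal bipolar cells and spinal interneurons, was at 3.53, 4.37, 4.57 and 5.31, with Cy5 above background on 1 array. In the other direction, a clone similar to prostaglandin D synthase (ptgds) was at -2.30, -3.62, -4.03 and -3.35. The monocarboxylate transporter clone similar to slc16a12 fell by 3.37, and so did a clone similar to a receptor kinase (-3.37 with an SD of 0.36). A clone similar to the adhesion molecule alcam was at -3.13 (adjusted p = 0.0762 without replicate 4 by limma). The other probes given here held with any replicate left out, and all were also called against the DEX control arrays. The clones similar to vsx1 and alcam were chosen after their values were seen.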
